A study of Mus musculus with 2 samples.

Results

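T cells of dystrophic hind limb muscle were described from single cell RNA-seq of mdx mice with and without the transcription factor Yy1 in muscle stem cells (MuSCs). A cell was taken as a T cell when it held at least 500 genes, UMIs (unique molecular identifiers, 1 per captured transcript) of at least 2 of Cd3d, Cd3e and Cd3g, and 0 UMIs of Pdgfra, Cdh5, Csf1r, Cd79a and Xcr1, which mark fibro-adipogenic progenitors (FAPs), endothelial cells, macrophages, B cells and dendritic cells. This gave 163 T cells, 66 in the Ctrl and 97 in the dKO library, of 7664 cells with at least 500 genes and 8010 cells in all.

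Ctrl mice were Pax7CreERT2/R26YFP; Yy1+/+; mdx and dKO mice were Pax7CreERT2/R26YFP; Yy1 f/f; mdx, so both groups carried the dystrophin mutation, the reporter and the Cre. Per the methods of the study, tamoxifen was injected on 5 days from 1.5 months of age in Ctrl and dKO mice, and 3 mice a group were pooled at 2.5 months, 1 month after tamoxifen. The labels enter Ctrl as having had no treatment and name tamoxifen in neither group. Digested hind limb muscle was sorted for live cells only, and each pool became 1 droplet library, so T cells were not gated by any surface protein. The Pax7 promoter restricts the Cre to MuSCs, and T cells are therefore not the cells in which Yy1 was deleted. With 1 library a group there is no replicate and no test. Intervals are 95% intervals of counting error only, exact except for those of differences of shares, which are approximate. Differences between mice, pools, libraries and genotypes cannot be told apart.

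T cells recognise peptides through a clonal receptor that signals through the CD3 chains and CD247. Helper cells carry CD4, cytotoxic cells carry CD8, and gamma-delta and other innate-like T cells often carry neither. Naive and recirculating T cells use receptors such as CCR7 and S1PR1 to move between blood and lymphoid organs, whereas cells that stay in tissue lose these receptors and often carry CXCR6, the receptor of CXCL16. In injured and dystrophic muscle, regulatory T cells that express FOXP3 are known to accumulate and to restrain inflammation.

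The libraries held 4527 and 3483 cells with a median of 8104 and 7969 UMIs among cells with at least 500 genes. T cells were smaller, with a median of 3470.5 UMIs in Ctrl (1503 to 11209) and 3278 in dKO (720 to 37223). The libraries shared 7 cell barcodes, of which 0 belonged to T cells in both and 1 to a T cell in 1 of them. Yy1 was checked in cells with a UMI of Pax7, where 211 UMIs in 63 Ctrl cells stood against 3 UMIs in 15 dKO cells. In T cells Yy1 was at 299 CPM (UMIs per 1000000 UMIs of the T cells of a library) in Ctrl and 222 in dKO, a dKO to Ctrl ratio of 0.741 (0.542 to 1.02).

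The leading genes of the selected cells included many known T cell genes, some of them shared with NK cells. Among genes in at least 20% of the T cells of each library, the 20 that stood farthest above the rest of the library in CPM included the adaptor Lat, the kinase Zap70, the transcription factors Lef1, Tcf7 and Bcl11b, and the receptors Cd6, Cd5, Cd27, Cd96, Icos and Cxcr6. Icos, an activating co-receptor, was at 494 CPM in Ctrl and 669 in dKO T cells against 2.86 and 4.51 in all other cells. Bcl11b, which keeps T cells committed to their lineage, had UMIs in 57.6% and 46.4% of T cells, and was at 0 CPM in Cd79a+ cells of both libraries and at 0.358 and 0 in Csf1r+ cells. The 12 Ctrl and 4 dKO cells with a UMI of Ncr1, an NK cell receptor, held several of these genes: Zap70 was at 69.1 CPM there in Ctrl and 140.4 in dKO against 148 and 131 in T cells, Tcf7 at 111 and 187 against 411 and 301, Cxcr6 at 96.7 and 46.8 against 187 and 354, and Bcl11b at 0 and 46.8 against 351 and 191. The Cd3 genes head this order because they chose the cells. Of the 13 genes listed for the receptor complex, 4 were measured here, namely Cd3d, Cd3e, Cd3g and Cd247, so receptor chains were not used to tell alpha-beta from gamma-delta cells.

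The 3 Cd3 genes lie together on chromosome 9 (GRCm38, GENCODE vM21), Cd3g at 44969572 to 44980431 on the minus strand, Cd3d at 44981786 to 44987339 on the plus strand and Cd3e at 44998740 to 45009627 on the minus strand. The starts of Cd3g and Cd3d are 1355 bases apart and face away from each other. Cxcr6 lies on the same chromosome at 123806475 to 123811760, plus strand, and Cd163l1, a scavenger receptor gene known in gamma-delta T cells, lies on chromosome 7 at 140218267 to 140231145, plus strand. All are protein coding genes. The 250 bases before the RefSeq start (GRCm38.p6) of Cd3d, which chose the cells, of Cxcr6, which cuts a subset described here, and of Cd163l1, the member of the innate-like list with most UMIs, are shown 5′ to 3′ on the plus strand, with matches to the letters searched in capitals.
Cd3d, chr9:44981536-44981785: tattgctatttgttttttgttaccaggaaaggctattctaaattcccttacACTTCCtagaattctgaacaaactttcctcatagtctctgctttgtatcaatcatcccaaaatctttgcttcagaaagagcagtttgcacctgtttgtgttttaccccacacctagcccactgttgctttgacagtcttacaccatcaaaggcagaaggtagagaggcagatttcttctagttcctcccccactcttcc
Cxcr6, chr9:123806227-123806476: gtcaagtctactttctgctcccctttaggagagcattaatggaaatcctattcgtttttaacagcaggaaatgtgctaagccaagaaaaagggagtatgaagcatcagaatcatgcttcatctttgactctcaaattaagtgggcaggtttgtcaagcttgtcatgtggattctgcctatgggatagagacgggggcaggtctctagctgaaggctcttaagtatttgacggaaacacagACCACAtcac
Cd163l1, chr7:140218017-140218266: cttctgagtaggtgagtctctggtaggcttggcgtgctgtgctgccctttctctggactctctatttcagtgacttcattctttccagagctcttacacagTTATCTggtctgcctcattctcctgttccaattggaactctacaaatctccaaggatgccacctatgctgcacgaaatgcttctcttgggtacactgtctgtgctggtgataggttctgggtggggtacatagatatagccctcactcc
Each window was searched on both strands for 5 motifs. The ETS motif was written GGAAGT and that of RUNX factors was written TGTGGT. The motif of TCF and LEF factors was CTTTGAA, whereas GATA factors were searched as AGATAA and AP-1 by TGANTCA. Cd3d held 1 ETS match 199 bases before the start, Cxcr6 held 1 RUNX match at 10 bases and Cd163l1 held 1 GATA match at 149 bases, all on the minus strand. Of 32851 promoter windows of the same length, 6485 held the ETS letters, 4614 those of RUNX and 3281 those of GATA, and a match is a description of the sequence only.

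T cells made up a larger share of the dKO library. The rule took 1.52% of the Ctrl library (1.18 to 1.93) and 2.91% of the dKO library (2.37 to 3.54), which is 1.39 points more in dKO (0.730 to 2.10). Among cells with a UMI of Ptprc, the pan-leukocyte gene, T cells made up 3.32% in Ctrl and 6.04% in dKO, or 2.72 points more (1.25 to 4.28). A share can move because T cells or because other cells differ in number, and cell numbers per muscle were not analysed here. The limit of the rule lies between cells with 1 and with 2 Cd3 genes: 24 Ctrl and 17 dKO cells with 1 Cd3 gene stood just outside, of which 12.5% and 58.8% held Icos, against 27 and 38 cells with 2 Cd3 genes, of which 51.9% and 44.7% held it. Bcl11b stood in 41.7% and 29.4% of the cells just outside and 55.6% and 28.9% of those just inside, the kinase gene Lck in 29.2% and 35.3% against 55.6% and 42.1%, and Il7r in 37.5% and 52.9% against 66.7% and 57.9%. Of 76 and 108 cells with at least 2 Cd3 genes, 10 and 11 were left out for a marker of another cell, in 7 and 6 cases Csf1r.

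The T cells were mixed. With Cd4 and Cd8 (Cd8a or Cd8b1) read from all UMIs, 23 Ctrl and 22 dKO cells were Cd4+ Cd8-, 15 and 22 were Cd8+ Cd4-, 1 and 0 held both, and 27 and 53 held neither. Because a missing UMI is common at this depth, each cell was thinned to 1500 UMIs, which kept 66 Ctrl and 93 dKO cells and left out 0 and 4. Then 21.2% and 12.9% were Cd4+ Cd8- (difference -8.31 points, -20.8 to 3.32), 18.2% and 19.4% were Cd8+ Cd4- (1.17, -11.7 to 13.0) and 60.6% and 67.7% held neither (7.14 points; from all UMIs 13.7, -1.86 to 28.3). None of these intervals excluded 0. With 7 further markers of other cells excluded, the Cd4+ difference turned to 4.47 points and that of cells with neither to -12.4. At this thinning a Cd4 UMI without Cd8 stood in 1.43% and 1.76% of Csf1r+ cells, whose median depth was 8959 and 7703 UMIs, and in 0 of 141 and 0 of 87 Cd79a+ cells, whose medians were 2404.5 and 2620.

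**Figure D1:**
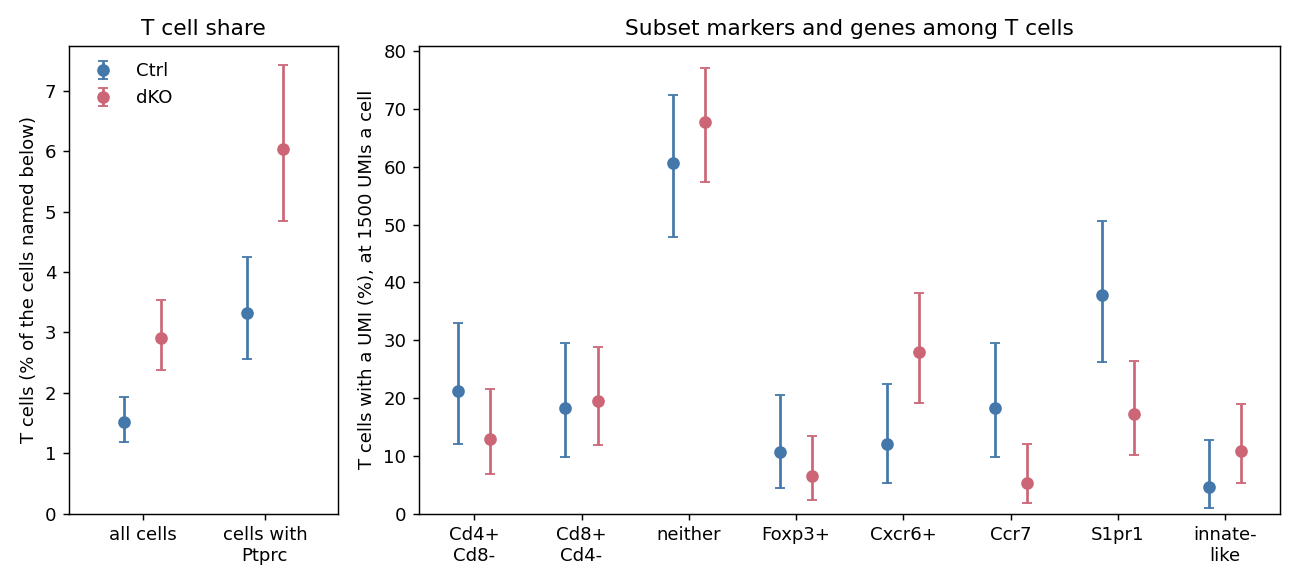
Left, T cells as a percentage of all cells with at least 500 genes and of those with a UMI of Ptprc; right, the percentage of T cells with each marker after thinning to 1500 UMIs a cell (66 Ctrl and 93 dKO cells). Points are shares and bars exact 95% binomial intervals for counting error; Cxcr6+ cells were 12.1% in Ctrl and 28.0% in dKO, S1pr1 37.9% and 17.2%.

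Foxp3, the master regulator of regulatory T cells, had UMIs in 12 of 66 Ctrl and 11 of 97 dKO T cells, and in 10.6% and 6.45% after thinning (difference -4.15 points, -14.5 to 4.60). After the same thinning it was found in 1 of 1258 and 0 of 907 Csf1r+ cells. Of these cells 6 and 5 held Cd4 and 6 and 6 held neither Cd4 nor Cd8, while 0 were Cd8+. Genes that the rule did not use separated them from other T cells in both libraries. Ikzf2, the Helios gene, was at 1504 CPM in Foxp3+ and 77.8 in Foxp3- cells of Ctrl, and at 953 and 98.5 in dKO. Tnfrsf4, the OX40 receptor, was at 1173 and 126 in Ctrl and at 1131 and 101 in dKO. Areg, a growth factor that muscle regulatory T cells are known to release, had 47 of its 78 Ctrl UMIs and 49 of its 82 dKO UMIs in Foxp3+ cells, but 31 and 32 of these UMIs came from 1 cell in each library.

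Over all T cells, regulatory genes were at a lower summed level in dKO. Of 1913 genes with at least 50 UMIs in at least 10 T cells, 66 were more than 2-fold higher in dKO (3.45%) and 19 more than 2-fold lower (0.993%), or 4.44% either way, with a median log2 ratio of 0.04 and 54.3% of genes higher to any degree. Of the 18 genes of the regulatory list, 7 passed this filter, and 7 of the 7 were lower in dKO, 1 past 2-fold (Gata3, which also counts in other lists), with a median log2 ratio of -0.45. The list sum was 2336 CPM in Ctrl and 1628 in dKO, a ratio of 0.697 (0.623 to 0.779). Ctla4, an inhibitory receptor, was at 267 CPM in Ctrl and 139.9 in dKO (ratio 0.524, 0.363 to 0.753), Ikzf2 at 335 and 245 (0.731, 0.544 to 0.986), and Foxp3 itself at 108 and 88.6 (0.823, 0.490 to 1.40). The list's difference depended on the gate: its log2 ratio of -0.52 became -0.04 without removal by markers of other cells, -0.25 with all 3 Cd3 genes required and -1.06 with 7 further markers of other cells excluded.

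Cxcr6+ T cells took a larger share of the dKO T cells. They were 17 of 66 in Ctrl and 42 of 97 in dKO, and after thinning 12.1% and 28.0%, a difference of 15.8 points (2.95 to 27.3). Another random draw of the thinning gave 11.7 points (-1.48 to 23.6), so whether the interval excluded 0 depended on the draw. Thinned Cd79a+ cells held Cxcr6 in 0 of 141 and 1 of 87 cells, and thinned Csf1r+ and Pdgfra+ cells in 0. The gene was at 187 CPM in Ctrl and 354 in dKO T cells (ratio 1.89, 1.36 to 2.68), with 47 UMIs in Ctrl, at most 12 in 1 cell, and 152 in dKO, at most 25 in 1 cell. Of the Cxcr6+ cells, 6 Ctrl and 3 dKO cells were Cd4+ Cd8-, 3 and 11 were Cd8+ Cd4-, and 8 and 28 held neither.

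Beside Cxcr6 itself, the leading genes of Cxcr6+ against Cxcr6- cells in both libraries were Tmem176a, Tmem176b, Klrk1, Ifng, Lmna, Ctla2a and Ccr2. Tmem176a, a membrane protein gene, was at 256 CPM in Cxcr6+ and 5.42 in Cxcr6- cells of Ctrl and at 322 and 7.75 in dKO, and Tmem176b at 392 and 10.8 in Ctrl and 328 and 23.2 in dKO. Klrk1, which encodes the activating receptor NKG2D, was at 211 and 21.7 in Ctrl and 217 and 19.4 in dKO. The further genes S100a4, Rora and Icos were not among the leading genes and are given as members of the lists. S100a4, a calcium-binding protein of migratory cells, was at 1945 CPM in Cxcr6+ and 449.9 in Cxcr6- cells of Ctrl and at 2380.0 and 492 in dKO. Rora, a transcription factor of innate-like and helper cells, was at 919.9 and 314 in Ctrl and 938 and 287 in dKO. Ccr2, the receptor of CCL2, was at 437 and 37.9 in Ctrl and 404 and 73.6 in dKO, and Icos at 829 and 374 in Ctrl and 1002 and 449 in dKO. Ifng, the interferon-gamma gene, was at 588 and 75.9 in Ctrl and at 492 and 50.4 in dKO, with 27 of 53 Ctrl UMIs and 43 of 97 dKO UMIs in 1 cell each. Among the leading genes of Cxcr6- cells, Igfbp4 was at 271 CPM against 0 in Cxcr6+ cells of Ctrl and at 96.8 against 11.7 in dKO, and Tcf7, a factor of naive and memory cells, at 499 against 166 and 429.9 against 106.

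UMIs of the gamma-delta and innate-like list lay mostly, but not only, in cells with neither Cd4 nor Cd8. In Ctrl 23 of 31 UMIs were in such cells and in dKO 153 of 169, and 19 and 143 were in Cxcr6+ cells. Ctrl cells with a UMI of the list were 2 Cd4+, 4 Cd8+ and 6 with neither, and dKO cells 4, 6 and 31. Cd163l1 had 8 UMIs in 3 Ctrl cells and 47 UMIs in 13 dKO cells, and all of these cells held neither Cd4 nor Cd8. It was at 31.9 CPM in Ctrl and 109.6 in dKO (ratio 3.44, 1.61 to 8.42), in 3.03% and 9.68% of thinned T cells (difference 6.65 points, -1.98 to 14.7), and at 0 in thinned Cd79a+, Csf1r+ and Pdgfra+ cells of both libraries. Blk, a Src family kinase shared by B cells and gamma-delta T cells, had 4 UMIs in 3 Ctrl cells and 19 in 11 dKO cells, also all without Cd4 and Cd8. Zbtb16, which encodes the innate-like T cell factor PLZF, had 1 UMI in 1 Ctrl cell, which was Cxcr6-, and 34 UMIs in 16 dKO cells, of which 15 were Cxcr6+. FAPs hold this gene too, in 9.18% and 15.2% of thinned Pdgfra+ cells against 1.52% and 9.68% of thinned T cells, so the Zbtb16 share of T cells was not above that of another cell type. Il17a, the cytokine of such cells, had 1 UMI in a Cxcr6- Ctrl cell and 15 UMIs in 6 dKO cells, all 6 of them Cxcr6+ and 1 of them Cd4+. Other members were spread more widely: Cd7, a surface glycoprotein of T and NK cells, had 2 of its 5 Ctrl cells and 9 of its 17 dKO cells among those with neither Cd4 nor Cd8, the NK receptor gene Klrb1c 2 of 4 dKO cells, and Klrb1f 0 of 3 Ctrl and 1 of 3 dKO cells.

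The 10 measured genes of the innate-like list summed to 124 CPM in Ctrl and 394 in dKO, a ratio of 3.19 (2.16 to 4.84), and 1 of them, Cd163l1, passed the filter on UMIs. The rule did not remove NK cells, and the 8 NK cell markers differed the same way, at 91.7 CPM in 14 Ctrl cells and 222 in 27 dKO cells (2.42, 1.52 to 3.99), with 3 of the 8, Ncr1 among them, at 0 and 2 dKO cells at 10 or more UMIs. Their part in the innate-like and cytotoxic values was not tested. UMIs of at least 2 of the 10 genes were found in 6 Ctrl cells (9.09%) and 22 dKO cells (22.7%), a difference of 13.6 points (1.78 to 24.1). After thinning this became 4.55% and 10.8%, a difference of 6.21 points (-3.12 to 14.7) that did not exclude 0. Of these cells 4 of 6 in Ctrl and 20 of 22 in dKO held neither Cd4 nor Cd8, 4 and 19 were Cxcr6+, and 0 were Foxp3+. Their median depth was 3214.5 and 3113 UMIs, below that of all T cells.

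**Figure D2:**
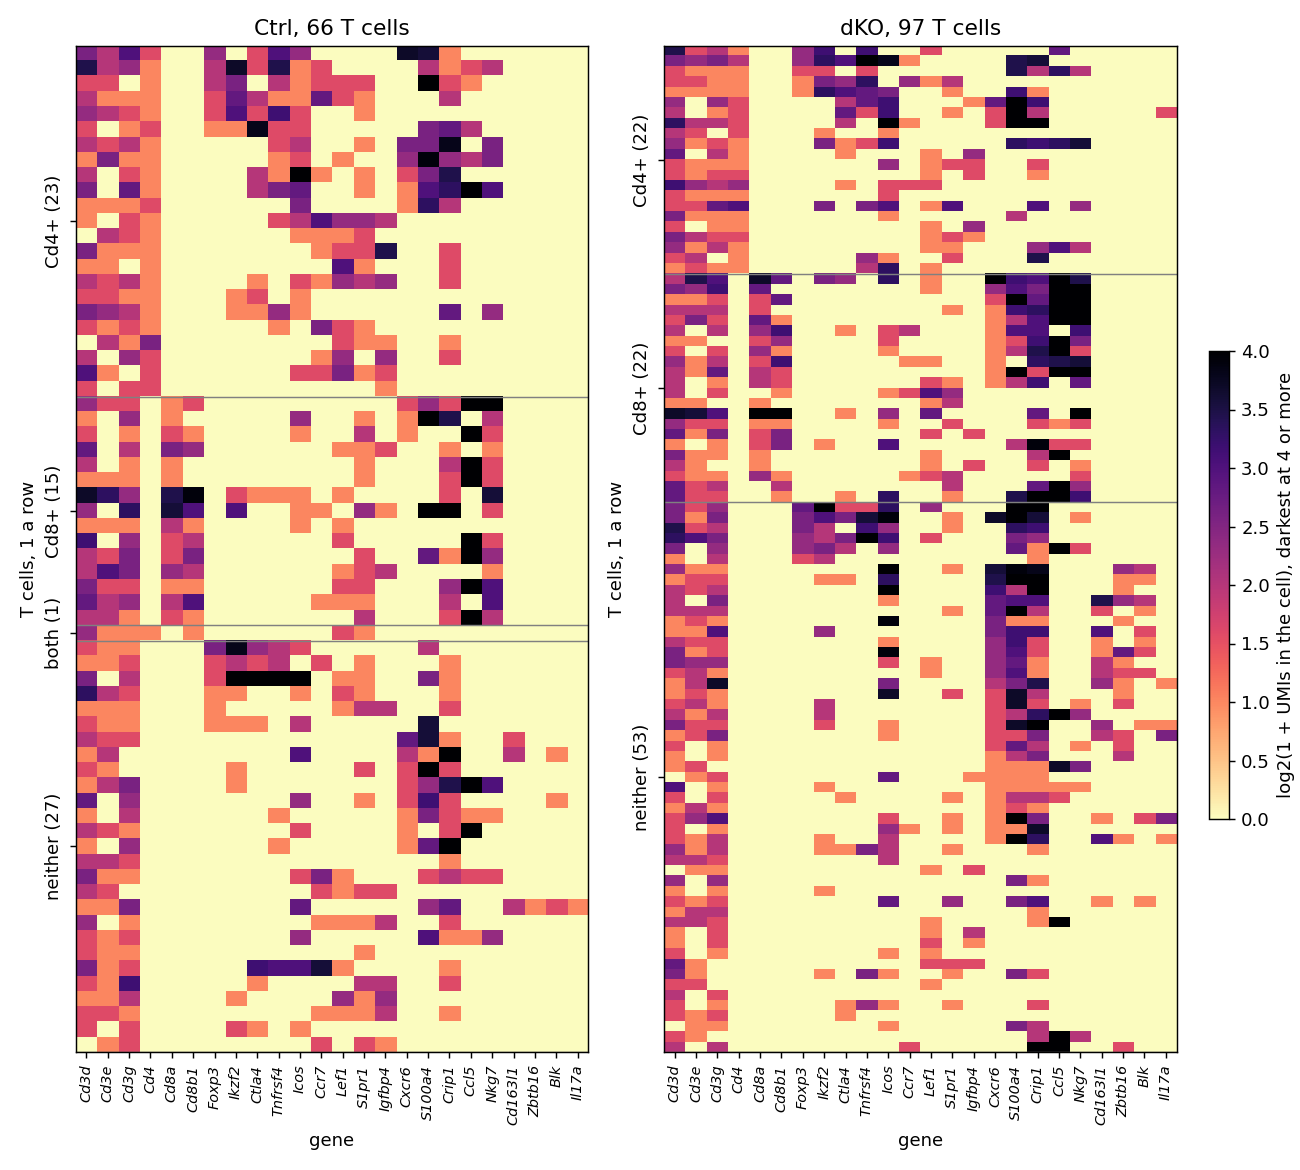
Each row is 1 T cell of the Ctrl (left, 66 cells) or dKO library (right, 97 cells), grouped by Cd4 and Cd8 and ordered by Foxp3 and then Cxcr6, and each column a gene; colour is log2(1 + UMIs), darkest at 4 or more. In dKO the 53 cells with neither Cd4 nor Cd8 include 28 Cxcr6+ cells, many with S100a4 and Crip1 and some with Cd163l1, Zbtb16 and Blk.

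Genes of naive and recirculating T cells were lower in dKO. Of the 11 listed genes, 10 passed the filter and 9 of the 10 were lower, 2 of them past 2-fold, with a median log2 ratio of -0.76 against 0.04 over all genes. Of all genes 54.3% were higher and 0.993% were past 2-fold lower. The list sum was 3129.9 CPM in Ctrl and 2122 in dKO, a ratio of 0.678 (0.616 to 0.747). Its log2 ratio of -0.56 was -0.16 without removal by markers of other cells and -0.38 as the mean of each cell's CPM. Thinned Ctrl cells held a lowest, median and highest sum of 0, 4 and 15 UMIs of these genes and dKO cells 0, 2 and 25, so the ranges of single cells overlapped over most of their length.

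Ccr7, the receptor that guides T cells into lymph nodes, had the lowest ratio among the 1767 of 1913 genes that kept their direction without the top cell of each library. It had 55 UMIs in 20 Ctrl cells and 18 UMIs in 10 dKO cells, or 219 and 42.0 CPM (ratio 0.191, 0.106 to 0.331), and its log2 ratio was -2.39 with and -2.43 without the cell with most of its UMIs in each library. After thinning 18.2% of Ctrl and 5.38% of dKO T cells held it, a difference of -12.8 points (-24.2 to -2.84), while in Cd79a+ cells, where B cells express it, the shares were 41.8% and 39.1%. S1pr1, which lets lymphocytes leave tissue, was at 255 and 128 CPM (0.503, 0.344 to 0.732) and in 37.9% and 17.2% of thinned T cells, a difference of -20.7 points (-34.3 to -6.72). Lef1 and Satb1, transcription factors of naive cells, had ratios of 0.536 (0.365 to 0.786) and 0.596 (0.454 to 0.782). Il7r, the receptor of the survival cytokine IL-7, was at 510.4 and 522 CPM and Klf2, which drives the egress genes, at 554 and 489.8, with ratios of 1.02 (0.820 to 1.28) and 0.884 (0.710 to 1.10).

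Genes listed for tissue residency were higher in dKO, each by less than 2-fold. Of the 15 measured genes, 12 passed the filter and 11 of the 12 were higher, with a median log2 ratio of 0.36, against 54.3% and 0.04 over all genes, and the sum was 6228 CPM in Ctrl and 8216 in dKO (ratio 1.32, 1.24 to 1.40). Beside Cxcr6, S100a4 was at 845 and 1243 CPM (1.47, 1.25 to 1.73), Crip1 at 785 and 1152 (1.47, 1.24 to 1.74) and Cd69, which holds lymphocytes in tissue by blocking S1PR1, at 159 and 231 (1.45, 0.993 to 2.15). Runx3, a factor of resident cytotoxic cells, was at 223 and 209.9 (0.940, 0.666 to 1.34). The integrin genes Itgae and Itga1 of epithelial resident cells had 12 and 3 UMIs in Ctrl and 8 and 1 in dKO. Thinned cells held a lowest, median and highest sum of 0, 5 and 32 UMIs of the list in Ctrl and 0, 13 and 52 in dKO. Without any removal by markers of other cells, the log2 ratio of the list turned from 0.40 to -0.13.

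Of the cytotoxic genes, Ccl5 and Nkg7 were higher in Cd8+ than in Cd4+ cells of both libraries. Ccl5, a chemokine that effector cells store, was at 3410.4 CPM in Cd8+ and 375 in Cd4+ cells of Ctrl and at 4532 and 282 in dKO, while cells with neither held 113 of its 402 Ctrl UMIs and 198 of its 791 dKO UMIs. Ifng was at 492 CPM in Cd4+ and 106 in Cd8+ cells of Ctrl, where 27 of the 42 UMIs of Cd4+ cells lay in 1 cell and 3 Cd4+ and 5 Cd8+ cells held the gene, and at 109 and 476 in dKO. Nkg7, a protein of cytotoxic granules, had 68 of 106 Ctrl UMIs and 179 of 218 dKO UMIs in Cd8+ cells. Between the libraries the 18 cytotoxic genes summed to 3102 and 3526 CPM (ratio 1.14, 1.04 to 1.24). Of these 5 of 8 that passed the filter were higher, a share near the 54.3% of all genes. Their median log2 ratio was 0.15, against 0.04 over all genes. The log2 ratio of the sum, 0.18, turned to -0.19 with all 3 Cd3 genes required and was 0.67 without removal by markers of other cells. Ccl4, a chemokine of activated T cells, was at 55.8 and 194 CPM (3.47, 1.96 to 6.62), with 49 of the 83 dKO UMIs in 1 cell. Gzmb, granzyme B, had 69 of its 74 Ctrl UMIs in 1 cell and 71 UMIs over 13 dKO cells.

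The 4 measured genes of the receptor complex summed to 1982 and 1768 CPM (ratio 0.892, 0.796 to 1.00), and as they chose the cells this is a description. Of 18 signalling and identity genes that passed the filter 14 were lower in dKO, with a median log2 ratio of -0.20. Over all genes 54.3% were higher in dKO, with a median of 0.04. The log2 ratio of their sum, -0.26, turned to 0.25 without removal by markers of other cells. Bcl11b was at 351 and 191 CPM (0.545, 0.398 to 0.745) and Gata3, a factor of type 2 helper and regulatory cells, at 303 and 98.0 (0.323, 0.216 to 0.477). Gata3 UMIs stood in 20 Ctrl and 27 dKO cells, with 22 of 76 Ctrl UMIs in 1 cell, and its log2 ratio without the top cells was -1.53. Pdcd1, which encodes the inhibitory receptor PD-1, was at 47.8 and 103 CPM (2.14, 1.11 to 4.46), in 8 Ctrl and 17 dKO cells. Of the type 2 cytokines, Il5 had 37 UMIs in 1 Ctrl cell and Il13 14 UMIs in 1 dKO cell.

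**Figure D3:**
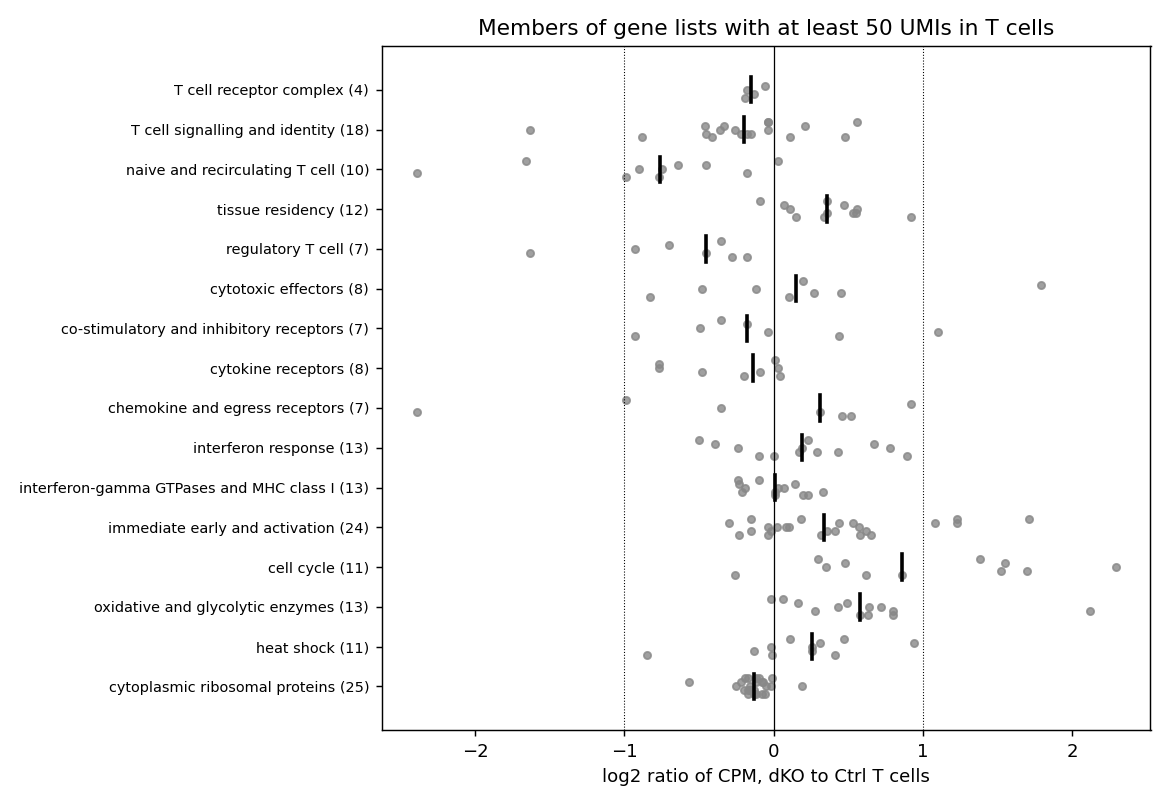
Each grey point is the log2 dKO to Ctrl CPM ratio of 1 gene of a list that passed the filter (number in parentheses), the black bar is the list's median, and dotted lines mark 2-fold. Medians run from -0.76 for naive and recirculating genes to 0.86 for cell cycle genes among the 16 lists drawn; other lists, such as the innate-like list with 1 gene past the filter, are not drawn.

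The summed level of cell cycle genes was higher in dKO, but not that of the median cell. Of 11 genes that passed the filter 10 were higher, against 54.3% of all genes, and 5 were past 2-fold higher, against 3.45% of all genes. Thinned cells held a lowest, median and highest sum of 0, 3 and 25 UMIs of the list in Ctrl and 0, 2 and 35 in dKO. The sum was 2982 CPM in Ctrl and 4702 in dKO (ratio 1.58, 1.45 to 1.72). Pclaf, a PCNA-binding protein of replicating cells, had 11 UMIs in 2 Ctrl cells and 92 in 8 dKO cells, and Top2a, which untangles replicated DNA, 12 UMIs in 5 and 59 in 12 cells. Mki67, the gene of the Ki-67 antigen, went the other way at 231 and 194 CPM, and 49 of its 58 Ctrl UMIs lay in 1 cell. UMIs of at least 3 of 14 cell cycle genes were found in 2 Ctrl (3.03%) and 8 dKO cells (8.25%), a difference of 5.22 points (-3.17 to 12.7). After thinning the shares were 1.52% and 5.38%, against 4.29% and 2.32% of Csf1r+ cells and 2.82% and 2.67% of Pdgfra+ cells. The deepest dKO T cell, a Cd8b1+ cell of 37223 UMIs with 59 UMIs of Pclaf, held 8.68% of all T cell UMIs of its library, and without it the log2 ratio of the list was 0.32 in place of 0.66. In Ctrl 1 cell held 257 of the 748 UMIs of the list, and without the top cell of both libraries the log2 ratio was 0.86.

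Most genes of energy metabolism were higher in dKO. Of 13 oxidative and glycolytic genes that passed the filter 12 were higher, with a median log2 ratio of 0.58, against 54.3% and 0.04 over all genes, and a sum of 4657 and 6327 CPM (ratio 1.36, 1.27 to 1.46). The log2 ratio of the sum, 0.44, was 0.11 without removal by markers of other cells, 0.24 without the 5% deepest T cells and 0.23 as the mean of each cell's CPM. Tpi1, a glycolytic isomerase, was at 35.9 CPM in 6 Ctrl cells and 156 in 26 dKO cells (4.35, 2.16 to 9.93) and Pkm, pyruvate kinase, at 283 and 441 (1.56, 1.18 to 2.08). The 39 measured interferon response genes summed to 3281 and 3853 CPM (1.17, 1.08 to 1.28), but 8 of 13 that passed the filter were higher, 0 past 2-fold, a share near the 54.3% of all genes. Isg15, a ubiquitin-like protein induced by interferon, was at 75.8 and 139.9 CPM (1.85, 1.09 to 3.28). Of 24 immediate early genes 17 were higher and 4 past 2-fold, against 54.3% and 3.45% of all genes, led by Zfp36, which degrades cytokine messages, at 87.7 and 287 CPM (3.27, 2.07 to 5.41). Immediate early genes are also known to respond to tissue digestion, and the part of digestion in these values was not tested. The heat shock genes were at 24876 and 25999.7 CPM (1.05, 1.01 to 1.08).

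Among genes whose direction was kept without the top cell of each library, the 12 highest and 12 lowest ratios were named. The upper end was led by Hist1h1b, a linker histone with 2 Ctrl and 72 dKO UMIs (21.1, 5.62 to 177), and included the histone gene Hist1h2ae, Pclaf and Dut, a dUTPase. In dKO 1 cell held 30 of 72 UMIs of Hist1h1b, 54 of 80 of Hist1h2ae, 59 of 92 of Pclaf and 31 of 96 of Dut, and in Ctrl 1 cell held 10 of 11 of Pclaf. Without the top cells of both libraries the log2 ratio of Hist1h1b went from 4.40 to 4.73, that of Hist1h2ae from 2.74 to 1.71, that of Pclaf from 2.29 to 4.34 and that of Dut from 1.90 to 1.85. Slc16a6, a transporter of the monocarboxylate family, had UMIs in 7 Ctrl and 32 dKO cells and 3110056K07Rik in 3 and 34, at most 4 UMIs a cell in either gene. Their log2 ratios of 2.12 and 2.60 are set against 7 and 5 Ctrl UMIs, and were 2.23 and 3.84 without the top cells. Hmox1, heme oxygenase, and Thbs1, thrombospondin, had 58 of 65 and 63 of 70 dKO UMIs in 1 cell, and without the top cells their log2 ratios were 0.46 and 0.04. Hmox1, Thbs1, Fabp5 and Ifitm3 turned to -0.30, -0.81, -0.80 and -0.52 when 1 Cd3 gene sufficed. These 4 genes were far higher in other cells. In Csf1r+ cells Hmox1 was at 1370.0 and 1554 CPM, against 15.9 and 152 in T cells. Thbs1 was there at 1081 and 1180.2, against 19.9 and 163, and Fabp5 at 1980.1 and 1652, against 31.9 and 133. Ifitm3 was at 1646 and 2395 in Pdgfra+ cells, against 27.9 and 107 in T cells. Carry-over from other cells was not tested. The lower end included, after Ccr7, Igfbp4 and Gata3, Kmt2d, a histone methyltransferase (log2 ratio -1.48), Ipcef1 (-1.29), Skil (-1.23), the integrin Itga6 (-1.22), Tut7 (-1.11), Stx11 (-1.10), Ripor2 (-1.06) and the kinase Pdpk1 (-1.06). Stx11 had 14 of its 30 Ctrl UMIs in 1 cell and UMIs in 7 Ctrl and 15 dKO cells, and its log2 ratio was -0.52 without the top cells and 0.98 with all 3 Cd3 genes required. In Csf1r+ cells Ccr7 was at 10.1 and 24.8 CPM and in Cd79a+ cells at 331 and 516, both higher in dKO, whereas it was lower there in T cells; the difference between cell types was not tested.

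**Figure D4:**
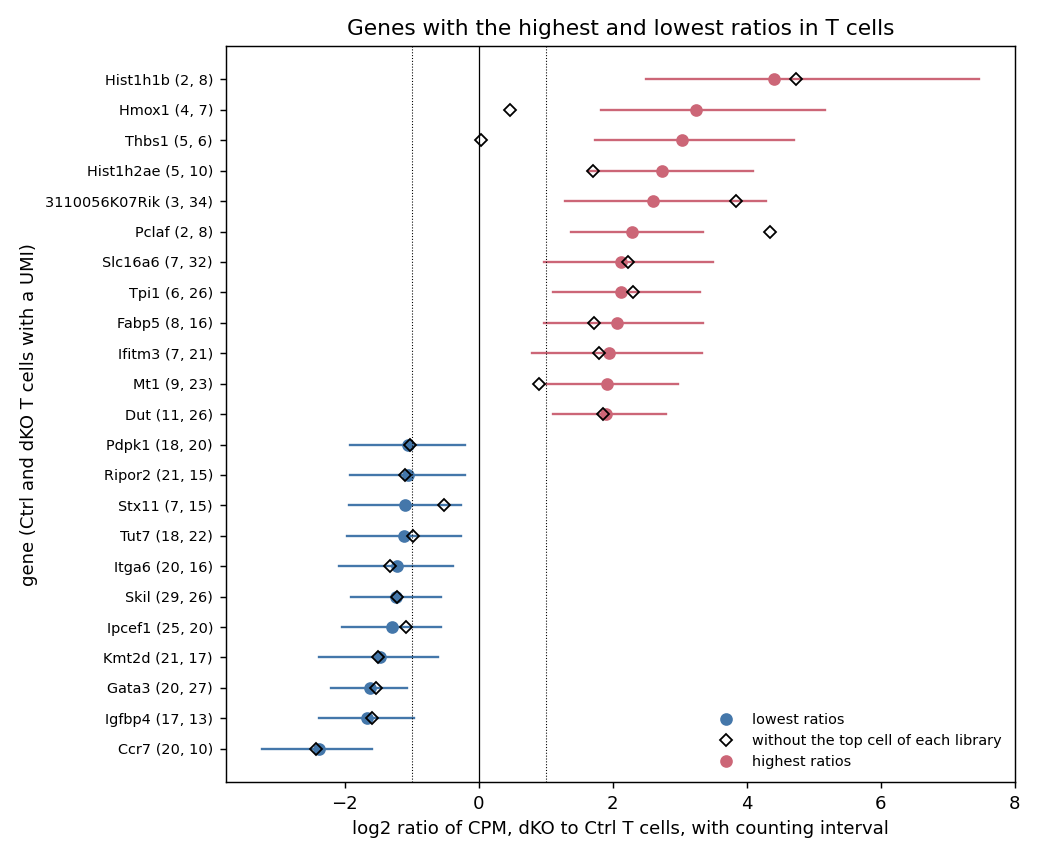
Log2 dKO to Ctrl CPM ratios of named genes at the upper and lower end in T cells, with 95% counting intervals (lines) and the ratio without the cell with most UMIs in each library (open diamonds); numbers are Ctrl and dKO T cells with a UMI. Diamonds of Hmox1 (0.46) and Thbs1 (0.04) sit near 0, that of Ccr7 at -2.43.

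Markers of other cells were low in the selected cells, in part by the rule, which set Csf1r of the macrophage, Pdgfra of the FAP and Cd79a of the B cell list to 0. The 12 macrophage markers summed to 367 and 413 CPM against 11423 and 10189 in all other cells, the 10 FAP markers to 295 and 231 against 21184 and 25816, and the 6 measured B cell markers to 3 and 2 UMIs. The 5 mast cell markers were at 0 UMIs, as were 5 of the 6 measured B cell markers, Cd79a by the rule. Of the NK cell markers, Fcer1g and Tyrobp are also known in gamma-delta T cells. Mural markers stood at 15.9 and 226 CPM, and 91 of the 97 dKO UMIs, led by Acta2, came from 1 cell of 12775 UMIs. Macrophage markers reached 58 UMIs in 1 dKO cell of 7199 UMIs. Leaving out the dKO cells with 10 or more UMIs of such a list, an alternative chosen after seeing the data, left 66 and 93 T cells and a share difference of 1.27 points (0.619 to 1.97). The NK cell list was not used for this.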

How the data were processed

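Single cell RNA-seq of hind limb muscle gave 1 library for Ctrl and 1 for dKO. The UMI counts per gene and cell were deposited by the authors as filtered matrices with no normalization; the file headers name Cell Ranger 3.0.2 and the submitters' processing notes name Cell Ranger 7.0.0, Seurat 4.3.0 and mm10. Library totals were 45556596 and 33815155 UMIs, and 192 and 154 cells under 500 genes were left out. The deposited genes include 0 mitochondrial genes, so the study's limit on mitochondrial reads was not applied here, and no doublet caller was run: cells with a UMI of 5 markers of other cells were removed in its place. Receptor constant genes were not analysed here, so the planned Trdc subset was not measured.

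UMIs of T cells were summed per library and given per 1000000 UMIs (CPM, computed here from the deposited counts) with Python 3.11.15, numpy 2.4.6, scipy 1.17.1 and pandas 2.3.3. Intervals are exact Poisson for CPM, Clopper-Pearson for shares, Newcombe for differences of shares and conditional binomial for ratios, at 95%, and cover counting error only. Genes needed 50 UMIs in both libraries together and 10 T cells. Named genes were the 12 highest and 12 lowest ratios whose direction was kept without the cell with most UMIs in each library, the 20 leading genes against other cells, leading genes of subsets, and members of 32 lists by role. Some named genes are not reported here. Members and lists were chosen with earlier results of these data known. For shares, cells were thinned to 1500 UMIs with a fixed seed. Alternatives covered the gate, depth, thinning, gene filter and scaling. The ratio, interval and list code was tested on simulated data.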

Additional observations from a re-analysis of the deposited data

How the results depend on the processing

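No paired analysis was possible because each group was 1 library with no replicate number, and no replicate could be left out. The T cell share difference stayed above 0 under the 10 alternatives run, and was 2.72 points among Ptprc+ cells. Of 65 subset values 62 stayed within the interval; the Cd4+ difference became 4.47 points with 7 further markers and 3.88 when thinned to 1000 UMIs, and that of cells with neither Cd4 nor Cd8 -12.4 with 7 further markers. Genes past 2-fold lower numbered 41 with at least 1 Cd3 gene, 171 without removal, 8 without the 5% deepest cells and 11 without the deepest dKO cell; a minimum of 20 UMIs gave 259 higher and 160 lower, 100 UMIs 11 and 1, and no filter 1100 and 2327.

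Log2 ratios of list sums were, with at least 1 Cd3 gene, regulatory -0.31; with all 3, residency 0.71, regulatory -0.25, cytotoxic -0.19 and cell cycle 1.38; with at least 1000 genes, cytotoxic 0.52; with 7 further markers, residency 0.26, regulatory -1.06, cytotoxic 0.82 and cell cycle 1.35. Without removal they were naive -0.16, residency -0.13, regulatory -0.04, cytotoxic 0.67, cell cycle 0.90 and oxidative 0.11, and the signalling, helper and ribosomal lists turned to 0.25, 0.15 and 0.16. Without the 5% deepest cells, residency was 0.64, cytotoxic 0.78, interferon 0.51, cell cycle 0.49 and oxidative 0.24. Without the deepest dKO cell, chosen after seeing the data, residency was 0.51 and cell cycle 0.32. As the mean of each cell's CPM, naive was -0.38, residency 0.51, regulatory -0.78, cytotoxic 0.45, interferon 0.52, cell cycle 0.21 and oxidative 0.23. Naive without its top member was -0.71 and cell cycle without its top cell in both libraries 0.86.

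Among named genes 12 of 312 values reversed. Hmox1, Thbs1, Fabp5 and Ifitm3 were -0.30, -0.81, -0.80 and -0.52 with at least 1 Cd3 gene, and with Mt1 were -0.70, -1.05, -1.24, -0.76 and -0.32 without removal. Hmox1 and Thbs1 were -0.08 and -0.98 without cells rich in another marker list, chosen after seeing the data. Stx11 was 0.98 with all 3 Cd3 genes. The cause of these changes was not tested. Depth limits all values, as 66 and 97 T cells held 250805 and 428775 UMIs.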

Other observations

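Ligands of T cell receptors were read in other cells of the same libraries, as values with counting intervals and no replicate. Cxcl16, the ligand of CXCR6, was at 296 CPM in Ctrl and 351 in dKO Csf1r+ cells (ratio 1.19, 1.13 to 1.25) and at 41.9 and 76.6 in Cdh5+ cells (1.83, 1.41 to 2.36). Cxcl9, a ligand of CXCR3 induced by interferon-gamma, was at 5.80 and 58.4 CPM in Csf1r+ cells (10.1, 7.94 to 12.9) and at 58.1 and 146 in Pdgfra+ cells (2.52, 2.33 to 2.73). Cxcl10, another CXCR3 ligand, was higher in dKO in Csf1r+ cells, at 70.6 and 143 CPM, while in T cells it was at 155 and 42.0, with 34 of 39 Ctrl UMIs in 1 cell, and the log2 ratio in T cells of -1.89 turned to 0.46 without the top cells. Il33, an alarmin to which muscle regulatory T cells are known to respond, was at 223 and 328 CPM in Pdgfra+ cells (1.47, 1.41 to 1.54). Cd274, which encodes PD-L1, was at 57.4 and 101 CPM in Csf1r+ cells (1.76, 1.59 to 1.94). Ccl17, a chemokine that attracts T cells, was at 0.931 and 4.91 CPM in Csf1r+ cells (5.27, 2.77 to 10.7). Ccl5 was at 37.7 and 140.4 in Csf1r+ cells (3.73, 3.36 to 4.14). In Cdh5+ cells it was at 0.801 and 26.8 (33.5, 10.6 to 170.1), with 3 UMIs in Ctrl. In Pax7+ cells Ccl5 was at 52.3 and 8.61 (0.165, 0.0330 to 0.505). That ratio rests on 60 UMIs over 63 Ctrl cells and 3 UMIs over 15 dKO cells. The paper reports this gene as induced in isolated dKO MuSCs. The reason for the opposite direction here was not tested. Other ligand values were lower in dKO, and the direction depended on the cell class. Ccl22, a chemokine of the same kind as Ccl17, was at 12.9 and 6.46 CPM in Csf1r+ cells (0.501, 0.363 to 0.683). Tgfb1 was at 282 and 229.8 in Csf1r+ cells (0.815, 0.771 to 0.861), but at 103 and 130.2 in Cdh5+ cells (1.26, 1.05 to 1.51). Il33 was at 6.88 and 2.39 in Csf1r+ cells (0.348, 0.204 to 0.568) and 101 and 31.6 in Pax7+ cells (0.312, 0.152 to 0.580), with 20 and 11 UMIs in dKO. In Cdh5+ cells Il33 was higher in dKO, at 37.1 and 135 (3.63, 2.89 to 4.57).

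Several gene groups of T cells differed little between the libraries. The 30 interferon-gamma GTPase and MHC class I genes summed to 8680.1 and 9016 CPM (ratio 1.04, 0.985 to 1.10) and the 22 cytokine receptors to 2559.8 and 2409 (0.941, 0.852 to 1.04). The 19 survival and death genes had a ratio of 1.08 (0.964 to 1.22). Of 25 ribosomal protein genes 24 were lower in dKO, whereas 54.3% of all genes were higher. Their median log2 ratio was -0.13, against 0.04 over all genes. The difference was small, but the interval of their sum excluded 1, with a ratio of 0.916 (0.903 to 0.928).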
